A study of Mus musculus with 27 samples.

Results

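Oxidative phosphorylation was followed in mouse splenic B cells through the messenger RNA of its own subunits, those encoded in the nucleus and those encoded in the mitochondrial genome. Members were taken by gene symbol alone: protein-coding genes whose symbols begin with Nduf, Uqcr, Cox4, Cox5, Cox6, Cox7, Cox8 or Atp5, the succinate dehydrogenase genes Sdha, Sdhb, Sdhc and Sdhd, and the 13 protein genes of mitochondrial DNA. The rule found 107 of the 35604 genes in the table, of which 94 were nuclear and 13 mitochondrially encoded. By complex, the nuclear members were 36 of complex I, 4 of complex II, 8 of complex III, 20 of complex IV with its isoforms and associated proteins, 16 of complex V and 9 assembly factors, together with a second gene model of Atp5o. Ndufa4 was counted with complex IV, of which its protein is a subunit despite the symbol. Atp5s, which encodes factor B and not a subunit of the enzyme core, was counted with the assembly factors here and below. The mitochondrially encoded members were 7 of complex I, 1 of complex III, 3 of complex IV and 2 of complex V.

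The 27 libraries were made from polyadenylated RNA of primary B cells from the spleens of wild-type mice and fell into 9 groups of 3. Naive cells were not cultured and received no treatment (0 h). All other groups were cultured ex vivo with anti-CD40 (an antibody, clone HM40-3, that triggers the receptor for T-cell help) at 1 µg/mL, for 6 h or for 24 h. At each time anti-CD40 was given alone, with IL-4 at 12.5 ng/mL, with IL-21 at 50 ng/mL, or with both cytokines, so the controls of every cytokine comparison were also stimulated through CD40. Comparisons at one time share libraries: IL-4 and IL-21 are both set against the same 3 libraries of anti-CD40 alone, which also enter the comparisons with naive cells and between times. IL-4 and IL-21 are cytokines of helper T cells, and the series asks what IL-21 does to the B cell directly. No group was cultured without anti-CD40, so in any comparison with naive cells culture and stimulation cannot be told apart. The labels do not say that replicates came from separate mice, and p-values then measure only the spread between these libraries.

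Oxidative phosphorylation is the chain of protein complexes in the inner mitochondrial membrane that passes electrons from NADH and succinate to oxygen and uses the resulting proton gradient to make ATP. Complex I oxidizes NADH, complex II oxidizes succinate, complex III passes electrons to cytochrome c, complex IV reduces oxygen, and complex V is the ATP synthase. Complexes I, III, IV and V are built from both genomes, with the catalytic or membrane core encoded in mitochondrial DNA, whereas complex II is wholly nuclear. Nuclear subunits are made in the cytosol and imported, and resting B cells are known to enlarge their mitochondria and raise respiration after activation.

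Values were TPM, a transcript measure corrected for transcript length and scaled to the same total in each library. They can be compared between genes and give shares rather than amounts per cell. In bulk samples a change in the RNA per cell and a change in the kinds of cells present cannot be told apart. Sequencing depth is unknown, because TPM does not keep it, and the listed genes summed to 766384 to 825365 TPM per library. Differences are log2 differences of mean log2(TPM + 1), fitted by limma over all 12147 genes that reached 1 TPM in at least 3 libraries, and calls were made where the adjusted p was under 0.05. Of the members, 87 nuclear and all 13 mitochondrially encoded genes passed that filter. The 7 that did not were Cox4i2, Cox6b2, Cox7b2, Cox8b, Cox8c, Ndufa4l2 and the second Atp5o model. Because TPM values depend on every other transcript of a library, each family-wide count is given beside the same count after a median-of-ratios rescaling, which centres each library on its typical gene.

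A pair of libraries stood apart. Replicate 1 of the naive group had the lowest mitochondrially encoded share of all 27 libraries. Replicate 1 of anti-CD40 and IL-4 at 24 h correlated at 0.957 and 0.927 with its own group and at 0.959 to 0.962 with the libraries given both cytokines at 24 h, while its group's other libraries correlated at 0.977 with each other. Its label was not contradicted by Socs3, an IL-21 target, which was at 315.7 to 748.3 TPM in the 12 libraries with IL-21 and at 0.551 to 53.3 TPM in the 15 without. Counts of called members that rest on these libraries are also given without them. Such fits also change the estimated spread of other genes, and the shares over all genes in them are not given. Cd79a and Cd79b, which encode the signalling chains of the B-cell receptor, were at 34.98 to 1641.2 TPM and 109.9 to 1108.7 TPM over the 27 libraries. T-cell markers summed to at most 3.215 TPM, NK-cell markers to at most 2.7 TPM and neutrophil markers to at most 0.393 TPM. Macrophage and monocyte markers summed to 24.54 to 35.58 TPM in naive libraries and to at most 9.299 TPM after culture. Erythroid and platelet markers summed to 999.8 to 1792.3 TPM in naive libraries, 101.6 to 244.7 TPM at 6 h and 11.24 to 47.93 TPM at 24 h.

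Promoter sequence was compared between the nuclear members and all genes, and a minority of members held any given motif. The windows below are 29 bases each from the RefSeq promoter table (GRCm38.p6, 250 bases before to 50 after each start), chosen because their genes rose at 6 h of anti-CD40 and hold the core of the binding site of NRF1, a transcription factor of mitochondrial genes. Capitals mark that core, GCGCATG, which in Sdhb lies on the other strand and so reads CATGCGC.
Ndufb6 (chr4:40279481-40279509, minus strand): gagagggctttGCGCATGagcagagcctg
Ndufaf4 (chr4:24897959-24897987, plus strand): cccagatgtctGCGCATGcgcctgtgcgg
Ndufa11 (chr17:56717691-56717719, plus strand): acctgcactgcGCGCATGcgcgcacgcct
Cox5b (chr1:36691425-36691453, plus strand): gaggcagaactGCGCATGtgcggcgtcta
Sdhb (chr4:140961207-140961235, plus strand): agcccagtgggCATGCGCcctacgggccg
The core begins 77 bases before the annotated start in Ndufb6, 113 in Ndufaf4, 60 in Ndufa11, 51 in Cox5b and 53 in Sdhb. Of the 93 nuclear genes, 76 had promoters in the table, 81 in number. Searched on both strands, GCGCATG was in 18.5% of these promoters and in 3.9% of all 32851 promoters of the table. CCGGAAG, a site of ETS factors such as GABPA, was in 22.2% against 8.9%, AAGATGG, a site of YY1, in 14.8% against 6.3%, and TGACGTC, a site of CREB and ATF factors, in 8.6% against 3.2%. CACGTG, the E-box bound by MYC, was in 8.6% against 7.2%. These are matches of letters in a window and do not show binding. The promoters of the table were used whether or not their genes were expressed here. No comparison was made with expressed genes alone or with promoters of like base composition.

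Mitochondrial sequences matter here for a different reason: the mouse nuclear genome holds near-perfect copies of them, and reads cannot always be assigned. The pairs below are the ends or starts of mitochondrial genes and their nuclear copies from GENCODE M21 transcripts, with capitals at the letters that differ or are absent from the copy.
mt-Atp6 (last 29 of 681 bases): taagcctatatctacatgataatacaTAA
Gm10925 (last 26 of 678 bases): taagcctatatctacatgataataca
mt-Co2 (last 29 of 684 bases): tcgaaaactgatctgcttcaataattTAA
Gm28661 (last 26 of 681 bases): tcgaaaactgatctgcttcaataatt
mt-Nd3 (first 17 bases): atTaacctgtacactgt
Gm28438 (first 17 bases): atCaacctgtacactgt
Gm10925 matched mt-Atp6 over all of its 678 bases with 0 mismatches, and Gm28661 matched mt-Co2 over 681 bases with 0 mismatches. Gm28437 matched mt-Co3 over 783 bases with 0 mismatches and lacked the last base of its 784. Gm28438 differed from mt-Nd3 by T3C alone, counted from 1 at the 5′ end of mt-Nd3. All lie on the minus strand of chromosome 1 between 24611535 and 24616197 (GRCm38), together with copies of part of mt-Co1 (Gm29216) and mt-Nd4 (Gm28439).

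The deposited values of these pairs showed how far the split went. Copies held a median of 94.5% (range 81.1% to 98.0% over libraries) of the summed TPM of mt-Co2 and its copies, 85.5% for mt-Atp6, 61.7% for mt-Co3 and 8.17% for mt-Co1. As listed, mt-Co2 averaged 777.5 TPM and mt-Co1, which lies in the same complex, 19610.6 TPM. With the copies added, mt-Co2 came to 13398.7 TPM, mt-Atp6 to 15359.7 TPM (2419.1 as listed) and mt-Co3 to 10216.1 TPM (3866.4 as listed). The levels of mt-Co2, mt-Atp6 and mt-Co3 as listed are therefore uncertain, and each call below was also made on the sums.

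**Figure D1:**
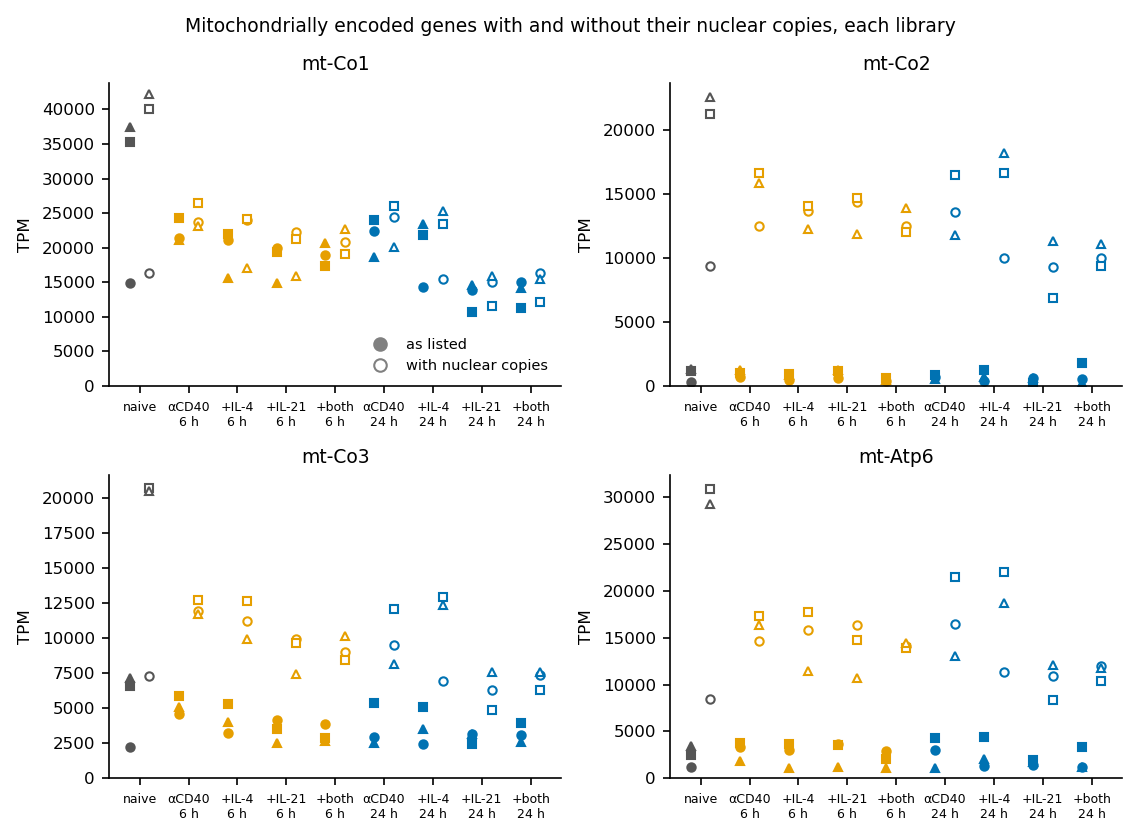
TPM of mt-Co1, mt-Co2, mt-Co3 and mt-Atp6 in each of the 27 libraries, as listed (filled points) and summed with their near-identical nuclear copies (open points), by group. The gap between filled and open points is small for mt-Co1, where copies held a median of 8.17%, and large for mt-Co2, where they held 94.5%.

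Levels of mRNA differed widely between subunits of the same complex. Mean TPM over all libraries had a median of 115.3 for complex I subunits, 116.6 for complex II, 370.4 for complex III, 314.3 for complex IV, 348.3 for complex V, 18.71 for assembly factors and 3866.4 for mitochondrially encoded genes. Atp5b, the catalytic beta subunit of the ATP synthase, had the highest mean of the nuclear complex V genes at 780.1 TPM, whereas its partner Atp5a1, the alpha subunit, was listed at 10.5 TPM. Other subunits of the intact enzymes were listed low as well: Ndufv3 at 0.728 TPM, Atp5k at 1.86 TPM, Cox6c at 7.56 TPM, Atp5d at 8.59 TPM, Uqcrc1 at 9.64 TPM, Ndufb8 at 10.6 TPM and Cox4i1 at 24.4 TPM. The cause of these low listings was not tested, and changes of these genes rest on low values.

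Tissue-specific isoforms were close to absent. Cox4i2, Cox7b2, Cox8b and Cox8c were listed at 0 in all 27 libraries, and Ndufa4l2 in 26. Cox6a2, the heart and muscle form of subunit 6a, averaged 1.02 TPM against 541.4 TPM for Cox6a1, and Cox7a1 averaged 1.03 TPM against 302.4 TPM for Cox7a2. Cox6b2 averaged 0.189 TPM against 422.5 TPM for Cox6b1.

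The nuclear members together took 1.557% to 2.822% of the listed TPM of a library, and the 13 mitochondrially encoded genes took 5.501% to 13.54%. The nuclear share was lowest in naive cells, at 1.746%, 1.557% and 1.631% in the 3 libraries. At 6 h it was 2.352%, 2.36% and 2.396% with anti-CD40 alone, and 2.281% to 2.741% in the 9 libraries given a cytokine as well. By 24 h anti-CD40 alone was back to 1.867%, 1.95% and 1.797%, below every 6 h library. Libraries with a cytokine at 24 h held 2.418%, 2.781% and 2.822% with IL-4, 2.428%, 2.269% and 2.71% with IL-21, and 2.676%, 2.73% and 2.619% with both. Thus anti-CD40 alone at 24 h did not overlap any cytokine group of that time.

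Mitochondrially encoded transcripts followed another course. Their share was 5.501%, 12.71% and 13.54% in naive libraries, a spread wider than in any stimulated group, and 6.911% to 11.26% over the 12 libraries of 6 h. At 24 h it was 10.44%, 11.84% and 8.515% with anti-CD40 alone and 7.888%, 11.63% and 10.97% with IL-4. IL-21 libraries at 24 h were lower, at 8.141%, 6.563% and 7.681% with IL-21 and 8.036%, 6.969% and 7.231% with both cytokines. The IL-21 libraries overlapped neither the anti-CD40 libraries nor, apart from IL-4 replicate 1 at 7.888%, the IL-4 libraries of that time.

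**Figure D2:**
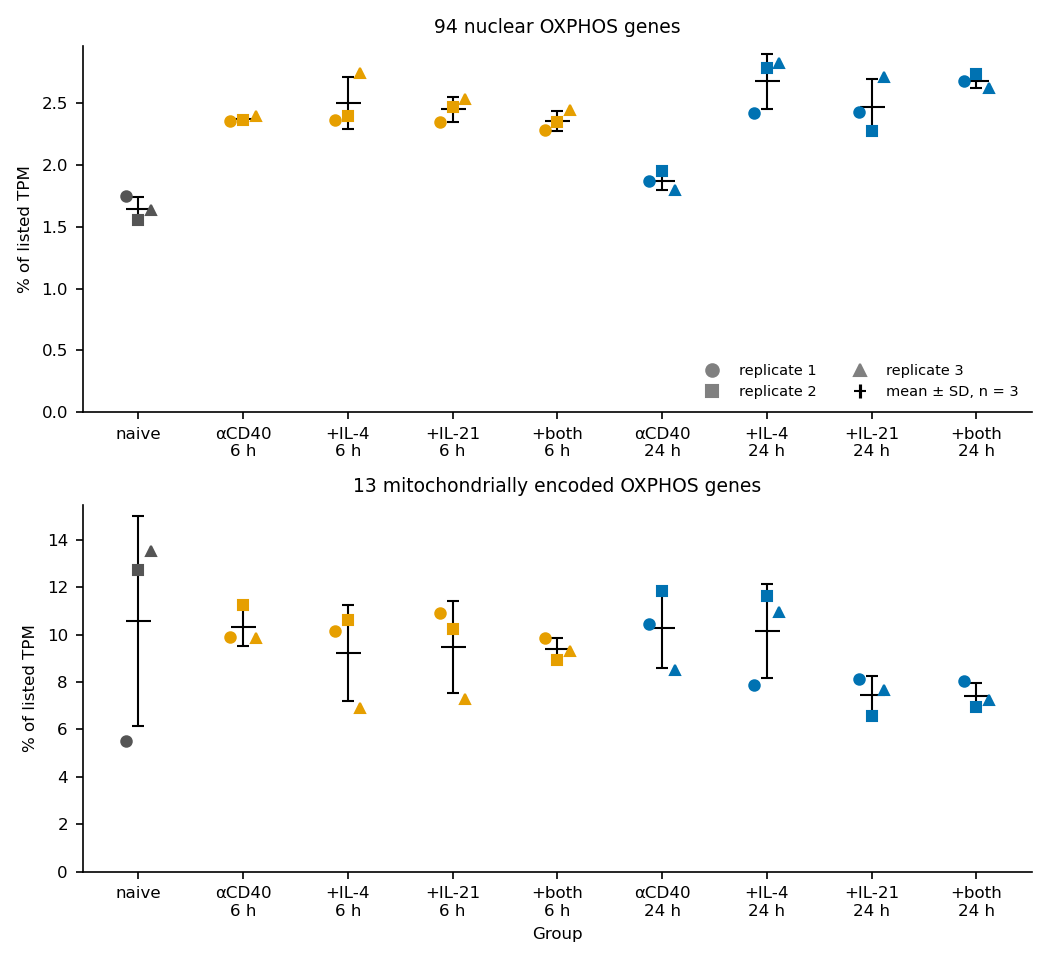
Share of listed TPM (%) taken by the 94 nuclear members (first panel) and by the 13 mitochondrially encoded genes (second panel) in each library, by group. Nuclear shares of naive cells lie between 1.557% and 1.746%, and mitochondrial shares of the 6 IL-21 libraries of 24 h between 6.563% and 8.141%.

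The ratio of summed nuclear to summed mitochondrially encoded TPM does not depend on how a library is scaled. It was 0.3174, 0.1224 and 0.1205 in naive libraries. Naive replicates 2 and 3 were below every stimulated library, and replicate 1 was within their range. The naive mean on the log2 scale was −3.04 without replicate 1. Anti-CD40 alone gave 0.2376, 0.2096 and 0.2432 at 6 h and 0.1787, 0.1647 and 0.2111 at 24 h. At 24 h the ratio was 0.3066, 0.2392 and 0.2571 with IL-4, 0.2982, 0.3457 and 0.3527 with IL-21, and 0.333, 0.3917 and 0.3622 with both. On the log2 scale the means were −2.44 ± 0.183 (SD, n = 3) for anti-CD40 alone at 24 h, −1.91 ± 0.184 with IL-4, −1.59 ± 0.132 with IL-21 and −1.47 ± 0.117 with both. Anti-CD40 alone was lowest of the 24 h groups and did not overlap the others, while IL-21 alone, as listed, overlapped both its neighbours in that order. With the nuclear copies added, the ratio at 24 h was 0.115 to 0.1456 with anti-CD40 alone and 0.165 to 0.2166 with IL-4. It was then 0.2199 to 0.2614 with IL-21 and 0.236 to 0.2938 with both, so IL-21 overlapped both cytokines but not IL-4. At 6 h the ratios of all 4 groups overlapped, between 0.2096 and 0.3966. As a score over the members the ratio was given no test.

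**Figure D3:**
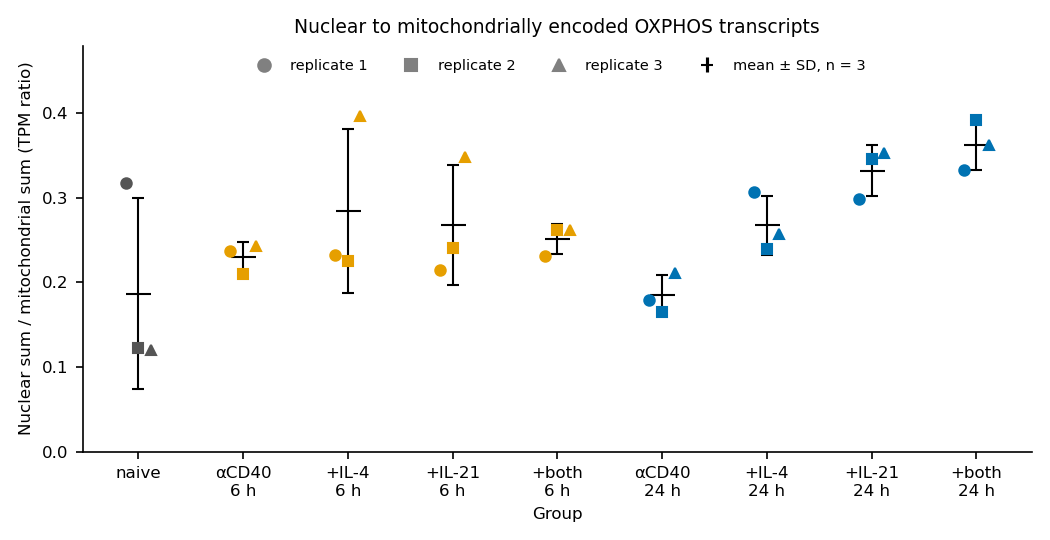
Ratio of summed TPM of nuclear members to summed TPM of the mitochondrially encoded genes in each library, by group, with group means. The 3 libraries of anti-CD40 alone at 24 h lie between 0.1647 and 0.2111, below the 9 cytokine libraries of that time at 0.2392 to 0.3917.

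Within complexes the ratio differed in level. As listed, its range over libraries was 0.0945 to 0.3078 for complex I, 0.1651 to 0.5946 for complex III, 0.0737 to 0.3035 for complex IV and 0.2196 to 1.008 for complex V. In complex IV, whose nuclear genes include the isoforms, the means at 24 h were 0.138 ± 0.0135 with anti-CD40 alone, 0.211 ± 0.0272 with IL-4, 0.282 ± 0.0223 with IL-21 and 0.288 ± 0.00935 with both (SD, n = 3 each). In complex V the means were 0.364 ± 0.147 with anti-CD40 alone, 0.611 ± 0.35 with IL-4, 0.846 ± 0.0253 with IL-21 and 0.763 ± 0.0671 with both, and the IL-4 libraries ran from 0.346 to 1.008. The order of the complexes depends on the nuclear copies, since mt-Co2, mt-Co3 and mt-Atp6 entered as listed. With the copies added, the range was 0.0392 to 0.1806 for complex IV and 0.0844 to 0.4149 for complex V, and complex III, at 0.1651 to 0.5946, reached the highest values. The complex IV means at 24 h were then 0.0758 ± 0.0066 with anti-CD40 alone, 0.109 ± 0.0161 with IL-4, 0.158 ± 0.0149 with IL-21 and 0.16 ± 0.0183 with both, and those of complex V 0.154 ± 0.0434, 0.234 ± 0.102, 0.357 ± 0.0498 and 0.329 ± 0.038.

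Against naive cells, 6 h of anti-CD40 raised nuclear subunits in each complex of the chain. Of 87 tested, 43 rose and 1 fell by limma, where 29.9% of all tested genes were called (16.6% higher, 13.3% lower). The median difference was 0.66 for the members against 0.06 over all tested genes. The count was 17 of 36 for complex I, 2 of 4 for complex II, 5 of 8 for complex III, 6 of 14 for complex IV, 8 of 16 for complex V and 5 of 9 assembly factors. After rescaling, 32 rose and 1 fell, with a median of 0.50, where 15.9% of all tested genes were higher and 19.7% lower. Groups did not overlap in 54 of the 87, where they did not in 41.5% of all tested genes. None of the 13 mitochondrially encoded genes was called by limma, or had an unadjusted p below 0.05 (0 of 13), and their median difference was 0.24.

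Atp5g1, which encodes the membrane c ring of the ATP synthase, stood at 62.39, 53.91 and 60.62 TPM in naive libraries and at 217.6, 175.9 and 191.0 TPM after 6 h. Every stimulated library was above every naive one (difference 1.70 ± 0.158 SE, limma adjusted p = 2.02e-08). Ndufa12, an accessory subunit of complex I, went from 133.7, 120.0 and 145.2 TPM to 387.4, 401.9 and 399.7 TPM (1.57 ± 0.118, limma adjusted p = 7.54e-10). Uqcrq, a small subunit of complex III, rose from 156.0, 164.9 and 135.8 TPM to 425.1, 409.2 and 399.1 TPM (1.43 ± 0.122, limma adjusted p = 5.56e-09). In each of these the groups were well apart and the replicates close.

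Other rises at 6 h spread over the chain. Ndufb6 of complex I rose by 1.54 ± 0.156 (limma adjusted p = 7.69e-08), from 39.65, 30.97 and 30.47 TPM to 104.7, 87.69 and 105.6 TPM. Ndufaf4, an assembly factor of complex I, rose by 1.41 ± 0.230 (limma adjusted p = 4.72e-05), from 17.05, 9.124 and 10.58 TPM to 30.81, 34.58 and 34.35 TPM. In complex IV, Cox5b rose by 1.04 and Cox5a by 0.82, and in complex II Sdhd rose by 0.73 and Sdhb by 0.69. Sdha, the flavoprotein of complex II, was at 118.6, 76.8 and 78.11 TPM in naive libraries and at 91.37, 75.58 and 72.18 TPM at 6 h. Neither Sdha nor Sdhc, a membrane anchor of the same complex, was called.

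Cox7a2l was the only member that fell at 6 h. It encodes a factor that holds complexes III and IV together in supercomplexes. Naive libraries held 569.4, 502.5 and 488.3 TPM, and anti-CD40 libraries 183.8, 195.2 and 196.5 TPM at 6 h (difference −1.43 ± 0.103, limma adjusted p = 3.94e-10). It was called lower under each alternative setting tried for that comparison. With a cytokine it was lower again at 6 h, at 118.9, 124.3 and 136.6 TPM with IL-4, 117.3, 115.1 and 130.5 TPM with IL-21, and 98.99, 105.5 and 107.9 TPM with both. It was 333.9, 289.4 and 338.4 TPM at 24 h of anti-CD40 alone, which is between the 6 h and naive levels. The 24 h cytokine libraries held 178.6 to 199.3 TPM with IL-4, 210.0 to 237.8 TPM with IL-21 and 178.7 to 184.1 TPM with both. At each time anti-CD40 alone was above every cytokine library. The fall was called with IL-4 (−0.60 at 6 h and −0.73 at 24 h) and with IL-21 (−0.66 and −0.53), whereas adding IL-21 to IL-4 gave no call at either time. After rescaling the difference with IL-4 at 24 h was −0.28 and was no longer called.

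**Figure D4:**
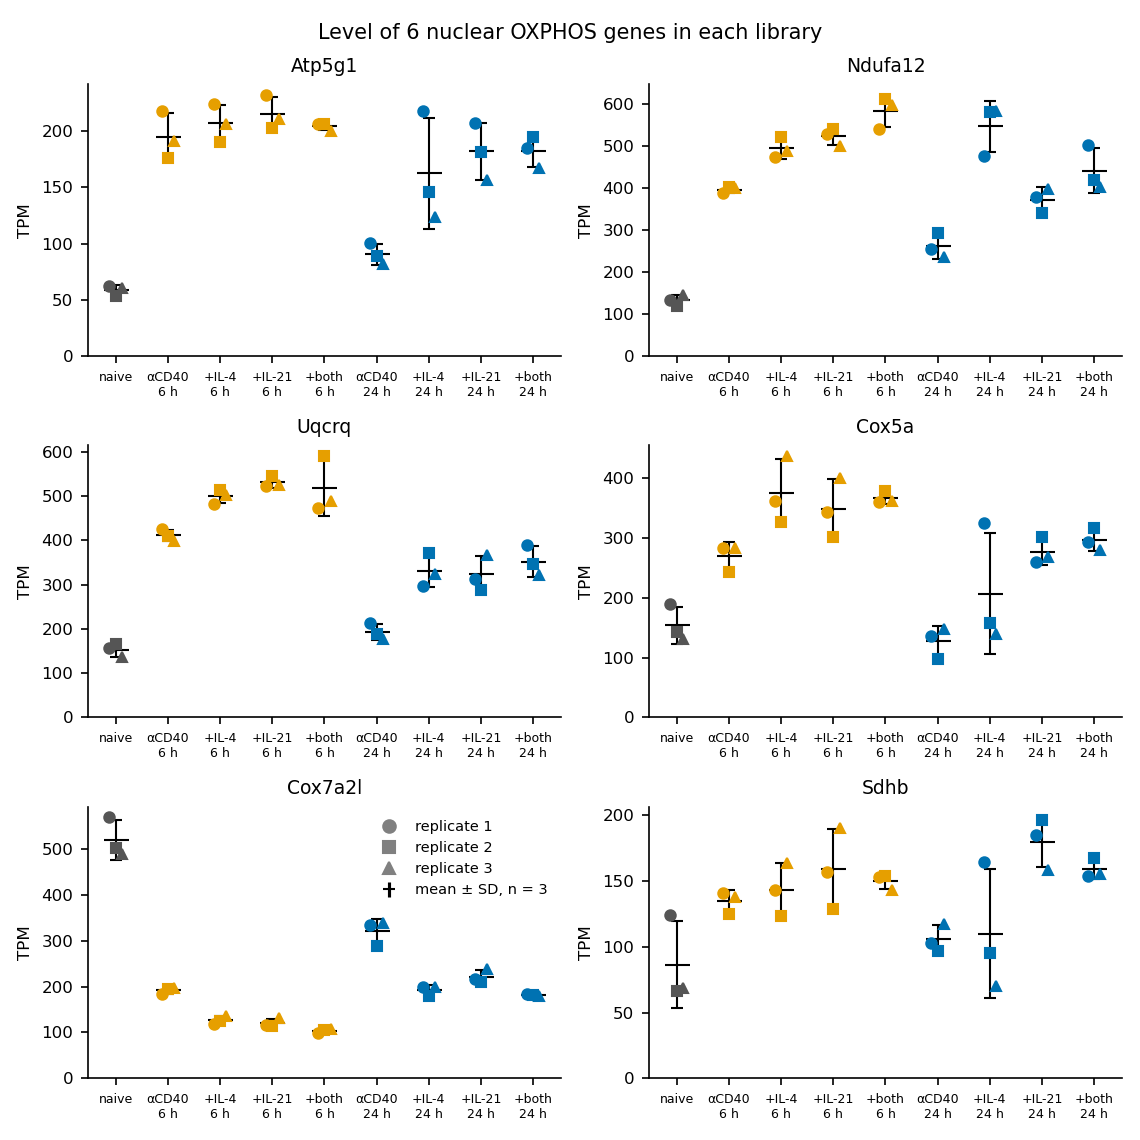
TPM in each of the 27 libraries, by group, for Atp5g1, Ndufa12, Uqcrq, Cox5a, Cox7a2l and Sdhb. Cox7a2l runs against the others, at 488.3 to 569.4 TPM in naive libraries and 98.99 to 196.5 TPM over the libraries of 6 h.

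At 24 h of anti-CD40 alone the difference from naive cells was smaller. Of 87 nuclear members 31 were higher and 1, Cox7a2l, lower, where 26.8% of all tested genes were called (18.9% higher, 7.85% lower). The median was 0.34 against 0.25 over all tested genes, and after rescaling 5 were higher and 7 lower with a median of 0.02 (13.3% and 16.3% of all genes), so the direction of the family as a whole depends on the scaling at this time. Without naive replicate 2 the count was 17 higher, and without naive replicate 3 it was 20 higher. Ndufv1, which carries the NADH-binding site of complex I, rose by 1.58 from 26.37, 12.32 and 7.519 TPM to 43.65, 27.22 and 65.01 TPM. Ndufv2, its partner, rose by 1.19 from 33.83, 35.91 and 38.94 TPM to 73.07, 98.49 and 80.96 TPM, and Cox7b rose by 1.02. None of the 13 mitochondrially encoded genes was called by limma, with 1 at an unadjusted p below 0.05 and a median of 0.15. Without naive replicate 1, the library of lowest mitochondrial share, 1 was called lower at 6 h and 2 at 24 h, with medians of −0.32 and −0.24, so the direction of these medians rests on that library. The nuclear counts without it were 49 higher and 1 lower at 6 h and 31 and 2 at 24 h. Markers of erythroid cells, platelets and macrophages fell with culture as given above, and their part in the comparisons with naive cells was not tested.

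Between 6 h and 24 h of anti-CD40 alone, 25 of the nuclear members fell and 1 rose, where 24.3% of all tested genes were called (16.1% higher, 8.17% lower) and groups did not overlap in 36 of 87 members, against 44.8% of all tested genes. The median was −0.25 against 0.15 over all tested genes, and after rescaling 28 fell and 2 rose with a median of −0.41 (14.6% and 16.1% of all genes). Cox5a, a matrix subunit of complex IV, fell by 1.10, from 283.7, 242.6 and 283.8 TPM to 136.6, 97.08 and 147.5 TPM. Atp5g1 fell by 1.10 to 100.6, 88.7 and 82.33 TPM, and Uqcrq by 1.09 to 212.8, 188.3 and 177.5 TPM. The member that rose was Cox7a2l, by 0.73. By complex, 12 members of complex I fell, 0 of complex II, 2 of complex III, 2 of complex IV, 6 of complex V and 3 assembly factors.

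IL-4 at 6 h left the nuclear members close to anti-CD40 alone: 0 rose and 1, Cox7a2l, fell, where 4.04% of all tested genes were called (1.65% higher, 2.4% lower). The median was 0.08 against 0.02 over all genes, and after rescaling 1 rose and 1 fell (2.7% and 3.58% of all genes). At 24 h nuclear members rose with IL-4, while over all genes more fell than rose. Here 37 nuclear members rose and 1 fell, where 31.4% of all tested genes were called, 8.28% higher and 23.1% lower. The median was 0.45 for the members and −0.31 over all genes, and after rescaling 60 rose and 0 fell, with a median of 0.87 (18.3% and 16.6% of all genes). Over all genes the share of calls that were higher moved as well, from 1006 higher and 2810 lower to 2224 higher and 2017 lower after rescaling. By complex the rises were 16 in complex I, 1 in complex II, 5 in complex III, 5 in complex IV, 6 in complex V and 4 assembly factors.

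Ndufa12 led the rises with IL-4 at 24 h, from 254.7, 294.4 and 236.1 TPM to 476.6, 581.0 and 583.3 TPM (1.06, limma adjusted p = 6.28e-07). Sdhd, a membrane anchor of complex II, rose by 0.84 from 117.2, 117.7 and 111.5 TPM to 159.7, 213.4 and 264.6 TPM. Uqcrq rose by 0.77 to 297.5, 370.8 and 324.8 TPM, and Atp5g1 by 0.80 to 217.3, 146.1 and 123.4 TPM. In each of these every IL-4 library was above every library of anti-CD40 alone. Ndufa5 of complex I rose by 0.95 and Uqcrb of complex III by 0.89, the latter with overlapping groups.

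Replicate 1 of the IL-4 group of 24 h differed from its partners in both directions, as the following 6 members, chosen after their values were seen, show. Cox5a was at 324.6 TPM in it and at 157.5 and 139.6 TPM in the other libraries, Atp5b at 1014.9 against 551.6 and 449.0 TPM, and Ndufa8 at 131.5 against 62.53 and 40.37 TPM. Conversely Cox7b was at 227.9 TPM in it and at 605.6 and 530.5 TPM in the others, Uqcrb at 583.9 against 1129.2 and 1252.7 TPM, and Ndufa4 at 501.6 against 1011.4 and 1060.4 TPM. For each of these genes it lay nearer to the libraries given both cytokines than its partners did. Groups did not overlap in 28 of 87 members, where they did not in 32.9% of all tested genes. The count was 42 higher and 6 lower without IL-4 replicate 1, and 21 and 1 without replicate 3. A fit of only these groups, which estimates the spread from 6 libraries, called 4 higher and 1 lower. The reason for that lower count was not tested. None of the 13 mitochondrially encoded genes was called by limma with IL-4 at either time, or had an unadjusted p below 0.05 (0 of 13 each), with medians of −0.20 at 6 h and −0.09 at 24 h. Without the pair of libraries that stood apart 2 of 13 rose with IL-4 at 24 h, and without IL-4 replicate 1 alone 0 did.

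Transcript length moved with the result in some comparisons, here first with IL-4 at 24 h. Of the nuclear members under 1000 bases 28 of 63 rose and 0 fell with a median of 0.48, and of the longer ones 9 of 24 rose and 1 fell with a median of 0.22. Over all tested protein-coding genes the medians were −0.12 for the short and −0.40 for the long. At 6 h of anti-CD40 against naive, the medians of short and long members were 0.66 and 0.67, and with IL-21 at 24 h 0.356 and 0.384. They were further apart at 24 h of anti-CD40 against naive, at 0.234 and 0.480. Between 6 h and 24 h of anti-CD40 alone they were −0.353 and −0.116, with 21 of 63 short and 4 of 24 long members lower. The part of length in the results was not tested further.

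IL-21 at 6 h raised few members: 4 rose and 1 fell of 87, where 12.1% of all tested genes were called (7.43% higher, 4.68% lower). The median was 0.05 against 0.10 over all genes, and after rescaling 3 rose and 2 fell (8.78% and 7.57% of all genes). Ndufab1, the mitochondrial acyl carrier protein and a subunit of complex I, rose by 0.91 from 61, 67.65 and 77.77 TPM to 112.2, 125.5 and 153.0 TPM. Ndufaf4 rose by 0.85 to 49.8, 68.05 and 65.36 TPM, and Ndufa12 by 0.40 to 529.2, 541.9 and 500.2 TPM. Cox6a2 rose by 1.48, from 0.539, 0.433 and 0.175 TPM to 3.031, 2.781 and 2.68 TPM, a low level beside Cox6a1. Leaving out replicate 1 or 2 of anti-CD40 or replicate 2 or 3 of IL-21 brought the rises to 1 or 2. No mitochondrially encoded gene was called by limma, with 0 of 13 at an unadjusted p below 0.05 and a median of −0.05.

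At 24 h more nuclear members were called higher than lower with IL-21. Each of the mitochondrially encoded genes had a lower mean, 1 of them past the test. Of 87 nuclear members 33 rose and 1 fell, where 24.2% of all tested genes were called (17.8% higher, 6.33% lower). Groups did not overlap in 41 of 87, where they did not in 38.3% of all tested genes. The median was 0.36 against 0.23 over all genes, and after rescaling 16 rose and 1 fell with a median of 0.13. Rescaled, 13.6% of all tested genes were higher and 10.3% lower, so 16 of 87 is near that background. By complex the rises were 14 of 36 in complex I, 1 of 4 in complex II and 2 of 8 in complex III. They were 8 of 14 in complex IV, 7 of 16 in complex V and 1 of 9 assembly factors. The complex IV count includes the muscle isoforms Cox6a2 and Cox7a1, which averaged only 1.02 and 1.03 TPM over all libraries. In complexes II and III and the assembly factors the counts rest on few genes and are not set apart from the 17.8% higher over all tested genes. Without replicate 2 of anti-CD40 alone, 21 rose and 1 fell. The share of listed TPM held by cytosolic ribosomal proteins was 17.02% to 22.3% in these IL-21 libraries, within a range of 17.02% to 27.56% over all libraries, and its part in the TPM of other genes was not tested.

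The members that rose with IL-21 included catalytic subunits. Atp5b went from 559.0, 422.2 and 635.9 TPM to 1114.1, 1153.1 and 843.8 TPM (0.95, limma adjusted p = 0.00191). Cox5a rose by 1.14 (limma adjusted p = 0.000717) to 260.6, 301.6 and 268.9 TPM, and Ndufa8, an accessory subunit of complex I, by 1.24 (limma adjusted p = 0.00289) from 66.78, 61.38 and 73.02 TPM to 166.8, 196.1 and 123.2 TPM. Every IL-21 library was above every library of anti-CD40 alone for these genes. Sdhb, the iron-sulphur subunit of complex II, rose by 0.76 from 102.9, 97.06 and 117.6 TPM to 185.2, 196.2 and 158.4 TPM. Ndufs5 rose by 1.66 with overlapping groups, from 3.822, 2.04 and 10.72 TPM to 9.833, 16.64 and 27.51 TPM. The muscle isoforms Cox7a1 and Cox6a2 both rose from levels near 0, Cox7a1 by 1.62, and Cox6a2 reached 1.817, 2.9 and 2.473 TPM.

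Of the mitochondrially encoded genes, 1 of 13 fell with IL-21 at 24 h. This was mt-Co1, the catalytic subunit of complex IV, which lies at 5328 to 6872 of the mitochondrial genome. It held 22456.4, 23963.1 and 18664.0 TPM with anti-CD40 alone and 13915.4, 10765.7 and 14675.3 TPM with IL-21, without overlap (−0.73 ± 0.259, limma adjusted p = 0.0432). The difference summed with its copies was −0.73 ± 0.267 (limma adjusted p = 0.0488). It lost its call after rescaling, with no filter on low values, and when replicate 1 or 2 of anti-CD40 alone or replicate 1 or 2 of IL-21 was left out. All 13 genes had a lower mean with IL-21 than with anti-CD40 alone, with a median of −0.52, and 6 of 13 lay below without overlap, as did 10.7% of all tested genes. The differences ran from −0.13 for mt-Nd2 to −0.89 for mt-Atp8, and only that of mt-Co1 passed the test, with 2 of 13 at an unadjusted p below 0.05. Summed with copies, 4 of 13 were at an unadjusted p below 0.05 (mt-Co1, mt-Co2, mt-Co3 and mt-Atp8), and mt-Co1 was again the one called by limma. Without the pair of libraries that stood apart, neither of which is in this comparison but both of which enter the pooled spread, 4 of 13 fell.

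**Figure D5:**
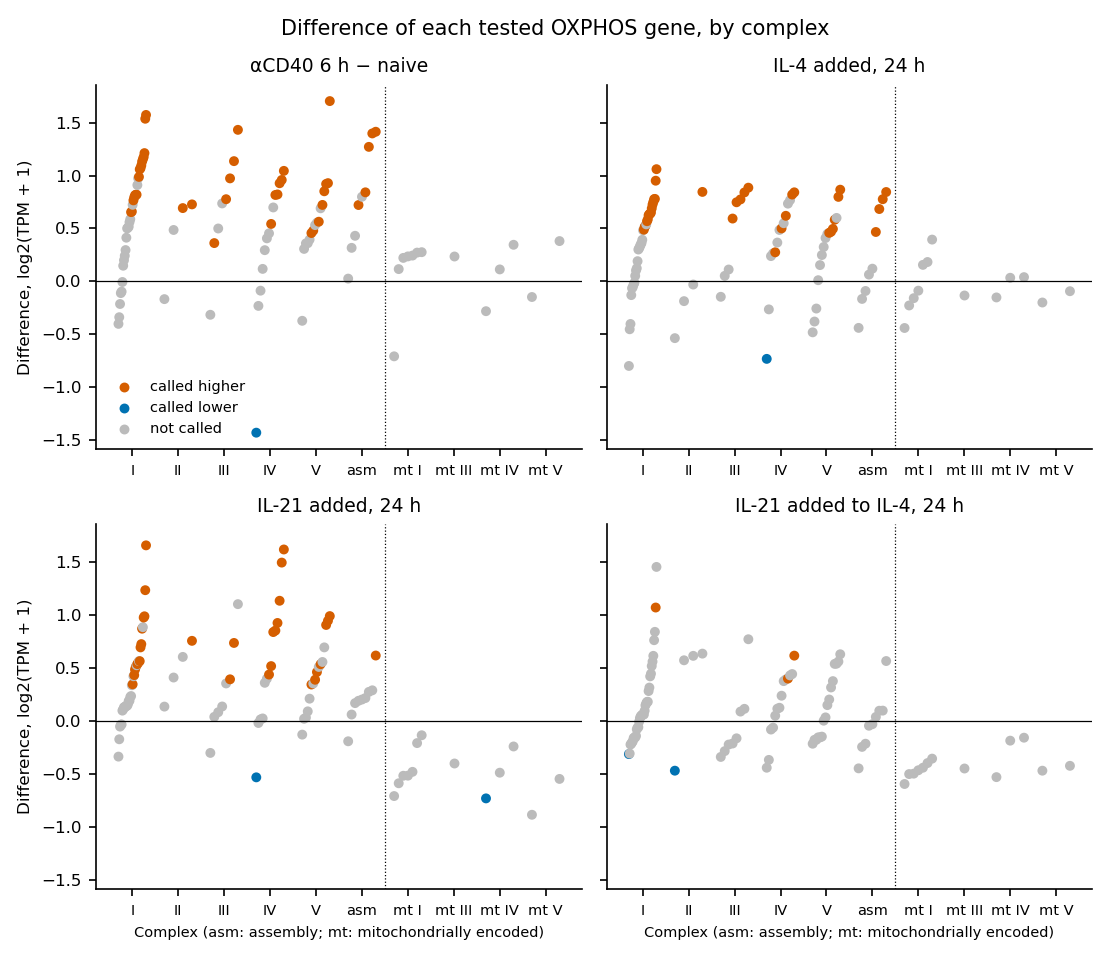
Log2 difference of each tested member by complex, with genes called at an adjusted p below 0.05 in colour, for anti-CD40 at 6 h against naive, IL-4 added at 24 h, IL-21 added at 24 h, and IL-21 added to anti-CD40 and IL-4 at 24 h. Nuclear members lie mostly above 0 in the first 3 panels, with medians of 0.66, 0.45 and 0.36, and the mitochondrially encoded genes lie below 0 with IL-21, with a median of −0.52.

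IL-21 on top of IL-4 called few nuclear members with all libraries in the fit. At 6 h 0 nuclear members were called by limma, where 2.54% of all tested genes were (1.25% higher, 1.28% lower), with 3 members at an unadjusted p below 0.05 and 0 called after rescaling. Of the mitochondrially encoded genes 0 were called, and 0 had an unadjusted p below 0.05. At 24 h 3 rose and 2 fell, where 24.2% of all tested genes were called (21.8% higher, 2.39% lower). The median was 0.06 against 0.38 over all genes. After rescaling 1 rose and 18 fell with a median of −0.49 (10.5% and 10.6% of all genes), so the direction of the family depends on the scaling. Over all genes the calls went from 2651 higher and 290 lower to 1273 higher and 1291 lower after rescaling.

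The members called at 24 h with IL-21 on top of IL-4 were Ndufa8 (1.07), Cox5a (0.62) and Cox5b (0.40), which rose, and Sdhd (−0.47) and Ndufs6 (−0.31), which fell. Ndufa8 reached 145.6, 161.6 and 135.3 TPM with both cytokines and Cox5a 293.3, 316.7 and 280.1 TPM, where Cox5a overlapped IL-4 replicate 1. Cox5b had a difference of −0.16 after rescaling. This comparison rests on replicate 1 of the IL-4 group, the library that stood apart. Without it 20 nuclear members rose and 13 fell, whereas without IL-4 replicate 2 or replicate 3 the count was 0. Leaving out a library given both cytokines left 1 or 2 called. With all libraries 0 of 13 mitochondrially encoded genes were called by limma, 1 had an unadjusted p below 0.05, and the median was −0.44. Without IL-4 replicate 1, 2 of 13 fell, and without the pair that stood apart 7 of 13 fell. Shares of all tested genes called in the fits without libraries are not given, so these counts have no background beside them.

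The change from 6 h to 24 h in the cytokine groups went both ways. With IL-4, 8 members rose and 7 fell, where 25.4% of all tested genes were called (8.82% higher, 16.6% lower), and after rescaling 14 rose and 3 fell (16.9% and 15.1% of all genes). Ndufs1 rose by 0.79, Sdhd by 0.73 and Ndufv2 by 0.65, while Atp5d fell by 1.21, Cox5a by 0.95 and Ndufab1 by 0.80. Without IL-4 replicate 1 of 24 h, 23 rose and 18 fell. Without replicate 2 of 24 h 5 rose and 2 fell, without replicate 3 of 24 h 4 rose and 3 fell, and without replicate 3 of 6 h 6 rose and 3 fell.

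With IL-21, 11 rose and 10 fell between 6 h and 24 h, where 35.5% of all tested genes were called (26.2% higher, 9.3% lower), and after rescaling 6 rose and 21 fell (21.3% and 18.3% of all genes). Ndufv1 rose by 1.66, from 33.75, 11.41 and 37.56 TPM to 85.58, 87.45 and 67.82 TPM, and Sdha by 1.05, from 83.73, 68.52 and 82.13 TPM to 168.4, 205.8 and 121.7 TPM. Uqcrc1, a core subunit of complex III, rose by 1.42 from low values. Ndufaf4 fell by 1.26 to 19.12, 24.02 and 32.36 TPM, Ndufa5 by 1.20 and Ndufaf8 by 0.77. With both cytokines 15 rose and 3 fell, where 30.2% of all tested genes were called (20.8% higher, 9.46% lower), and after rescaling 5 rose and 7 fell (20.1% and 16.3% of all genes). Cox6c rose by 1.91 and Ndufaf3 by 1.25, both from under 20 TPM, and Ndufb11 rose by 0.89, while Ndufaf4 fell by 1.26, Uqcrq by 0.55 and Ndufa12 by 0.41. Without replicate 1 of 24 h 8 rose and 3 fell, and without replicate 2 of 6 h 5 rose and 2 fell.

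Among the mitochondrially encoded genes mt-Nd6 alone was called for time with all libraries in the fit. It is the one protein gene on the other strand of the mitochondrial genome (13552 to 14070) and overlaps the end of mt-Nd5, and since no source used here says whether counting used strand, its reads cannot be told from those of the opposite strand. It rose between 6 h and 24 h with anti-CD40 alone, from 148.2, 117.2 and 125.6 TPM to 371.6, 333.5 and 355.2 TPM (1.44 ± 0.373, limma adjusted p = 0.00723). It also rose with IL-4 (1.08, limma adjusted p = 0.0368), where groups overlapped at 111.0, 253.5 and 101.4 TPM against 206.2, 243.4 and 543.8 TPM. The call with IL-4 was lost when replicate 1 or 3 of 6 h or replicate 2 or 3 of 24 h was left out. With IL-21 or with both cytokines 0 of 13 were called by limma, and 0 had an unadjusted p below 0.05 as listed. Summed with copies, 0 were called in either. With IL-21, 1 of 13 then had an unadjusted limma p below 0.05 (mt-Co2, −0.60), and with both cytokines 0 did. Without the pair that stood apart 2 of 13 rose with anti-CD40 alone and 4 with IL-4, while 2 fell with IL-21 and 3 with both cytokines.

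The difference between the IL-21 effect with and without IL-4 was tested as an interaction. At 6 h 1 nuclear member was called, Cox6a2 (−1.47), where 0.412% of all tested genes were (0.148% higher, 0.263% lower). The call was lost without replicate 3 of anti-CD40 (−1.35), replicate 2 or 3 of IL-4 (−1.41 and −1.40), replicate 1 or 2 of IL-21 (−1.43 and −1.47) or replicate 1 of both cytokines (−1.31), each of 6 h. At 24 h 7 were called, all negative, where 5.8% of all tested genes were called (2.48% lower), and after rescaling 0 were positive and 12 negative (4.94% and 6.19% of all genes). Cox6a2 had −1.10, Ndufa12 −0.82, Atp5g1 −0.79, Ndufs6 −0.66, Uqcrq −0.65, Uqcr11 −0.62 and Atp5o −0.55. For Uqcrq the levels were 177.5 to 212.8 TPM with anti-CD40 alone, 288.6 to 367.7 TPM with IL-21, 297.5 to 370.8 TPM with IL-4 and 320.5 to 388.4 TPM with both, and the 3 cytokine groups overlapped. No mitochondrially encoded gene had an interaction call by limma or an unadjusted p below 0.05 at either time (0 of 13 each). Without IL-4 replicate 1 of 24 h there were 1 positive and 14 negative calls among the nuclear members. The count fell to 2 to 4 when replicate 3 of anti-CD40, replicate 2 of IL-4, replicate 3 of IL-21 or any library of both cytokines at 24 h was left out.

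The c ring of the ATP synthase is encoded by Atp5g1, Atp5g2 and Atp5g3, whose mature proteins are identical, so the share of each gene was followed. Atp5g1 made up 17.8% ± 3.33 (SD, n = 3) of their summed TPM in naive cells and 28.3% ± 2.74 after 6 h of anti-CD40. At 24 h it made up 20.8% ± 1.99 with anti-CD40 alone, 26.4% ± 1.71 with IL-4, 24.8% ± 3.39 with IL-21 and 25.8% ± 1.59 with both. Atp5g3 was the main source in every group, from 55.8% to 63.4% on average. The naive and 6 h shares of Atp5g1 did not overlap (14.47% to 21.12% against 25.96% to 31.31%), and neither did those of anti-CD40 alone (18.47% to 22.12%) and any cytokine group at 24 h (22.61% to 28.72%).

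The motifs were also counted separately in members that rose at 6 h of anti-CD40 and in the other tested members. GCGCATG was in the promoters of 7 of 38 genes that rose and of 8 of 35 others, CCGGAAG in 12 of 38 and 6 of 35, AAGATGG in 6 of 38 and 6 of 35, TGACGTC in 4 of 38 and 2 of 35, and CACGTG in 4 of 38 and 2 of 35. These counts are a description and were not tested.

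Some members have close copies elsewhere in the nuclear genome, and their levels are uncertain to that extent. Ndufb4c, a processed pseudogene identical to Ndufb4 over 390 bases, averaged 235.1 TPM against 74.3 TPM for Ndufb4, and Gm10221, identical to part of Atp5l over 309 bases, averaged 148.5 TPM against 480.2 TPM. Gm15920, a copy of Ndufa12, averaged 20.5 TPM against 417.2 TPM. With members summed with their copies, the nuclear counts were 43 higher and 1 lower for anti-CD40 at 6 h, 37 and 1 for IL-4 at 24 h, and 33 and 1 for IL-21 at 24 h, the same numbers as without the copies.

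Genes that work with the respiratory chain but lie outside the symbol rule were counted beside it, each comparison against the shares called over all genes given above. Mitochondrial ribosomal proteins, which make the subunits encoded in mitochondrial DNA, rose in 51 of 78 at 6 h of anti-CD40 with 0 lower. With IL-4 at 24 h 33 rose and 1 fell, and with IL-21 at 24 h 33 rose and 1 fell. After rescaling the counts were 45 and 1, 58 and 0, and 20 and 1, to be read against the rescaled shares over all genes of 15.9% higher and 19.7% lower, 18.3% and 16.6%, and 13.6% and 10.3%. Mrps28 rose by 1.73 at 6 h, Mrpl12 by 1.12 with IL-4 and Mrpl52 by 2.45 with IL-21. Protein import genes, which carry nuclear subunits into the organelle, rose in 15 of 21 at 6 h of anti-CD40, 13 with IL-4 and 7 with IL-21 at 24 h, with 0 lower in each (12, 15 and 3 after rescaling). Timm10 rose by 1.81 at 6 h and Timm17a by 1.11 with IL-21.

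The tricarboxylic acid cycle, which supplies the NADH and succinate, rose in 7 of 16 genes at 6 h of anti-CD40, 4 with IL-4 and 8 with IL-21 at 24 h, with 0 lower. After rescaling 5 rose and 1 fell at 6 h, and 8 rose with IL-4 and 6 with IL-21. Fumarase, Fh1, rose by 1.40 with IL-4, and Idh3a rose by 1.30 and Ogdh by 1.02 with IL-21. Of 9 tested genes of the chain without a matching symbol, 5 rose and 1 fell at 6 h, 6 and 1 with IL-4, and 5 and 0 with IL-21 (3 and 1, 7 and 1, and 2 and 0 after rescaling). Cycs, cytochrome c itself, rose by 0.90 at 6 h, by 1.33 with IL-4 and by 0.90 with IL-21, while Ucp2, an uncoupling protein, fell by 1.12 at 6 h and by 1.33 with IL-4. Of 41 assembly factors outside the rule 10 rose and 1 fell at 6 h, 6 and 4 with IL-4, and 6 and 2 with IL-21, where rescaling gave 9 and 2, 14 and 3, and 3 and 4.

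Lists of genes that maintain and express mitochondrial DNA were small, and their counts are read against all tested genes. Of all tested genes 16.6% were higher and 13.3% lower at 6 h of anti-CD40. The shares at 24 h were 8.28% and 23.1% with IL-4, and 17.8% and 6.33% with IL-21. Of 18 genes of DNA maintenance and transcription 7 rose and 1 fell at 6 h, 0 and 3 with IL-4, and 0 and 1 with IL-21. Rescaling changed the balance with IL-4 to 7 and 2, and gave 5 and 4 at 6 h and 0 and 2 with IL-21. Tfb2m, a mitochondrial transcription factor, rose by 1.18 at 6 h, and Tk2, a mitochondrial thymidine kinase, fell by 1.77 at 6 h and by 1.53 with IL-4. Of 20 genes of mitochondrial RNA processing and stability 9 rose and 0 fell at 6 h, 4 and 1 with IL-4, and 1 and 0 with IL-21 (7 and 0, 10 and 0, and 0 and 0 after rescaling). Of 10 regulators of mitochondrial biogenesis 3 rose and 1 fell at 6 h, 0 and 3 with IL-4, and 2 and 0 with IL-21 (4 and 1, 0 and 2, and 1 and 0 after rescaling). Gabpa and Gabpb1, which form the ETS factor GABP, rose by 0.78 and 1.37 at 6 h, and Nrf1 rose by 0.52 with IL-21 at 24 h. Cytosolic ribosomal proteins, taken as symbols beginning Rpl or Rps and encoded by short transcripts like many members, rose in 11 of 87 and fell in 6 at 6 h, rose in 7 and fell in 3 with IL-4, and rose in 3 and fell in 22 with IL-21. After rescaling 5 rose and 8 fell at 6 h, 9 and 0 with IL-4, and 1 and 14 with IL-21.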

How the data were processed

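Polyadenylated RNA of 27 libraries in 9 labelled groups was sequenced by the authors. The deposited table holds gene-level TPM. The submitters' processing notes name Salmon 1.9.0 as tool and GRCm38/mm10 as build. Depth per library is unknown. Of the fixed TPM total of a library, 17.5% to 23.4% was not in the listed genes. GENCODE M21 gave symbols and positions for 35254 of 35604 gene IDs.

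Values were used as listed. On the scale log2(TPM + 1), limma 3.58.1 (R 4.3.3) estimated 9 group means from the 27 libraries together (variance trend, 18 residual degrees of freedom) for the 12147 genes at 1 TPM or more in at least 3 libraries. P-values were adjusted by the Benjamini-Hochberg method over all tested genes within each of 14 contrasts. Data were simulated for IL-21 added to anti-CD40 at 24 h (12147 genes), with 50 genes changed at each size. Changes of 0.5, 1, 1.5 and −1 on the log2 scale were recovered in 10%, 50%, 78% and 52%, with 6 false calls. Each gene had 1 mean in all other groups and independent normal spread. The data themselves gave 2936 called genes in this comparison, so these rates need not hold for them. Copies were found with blastn 2.17.0 at 95% identity over at least 200 bases. Tables and figures used Python 3.11.15, pandas 2.3.3 and matplotlib 3.10.9.

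Members, lists and tests were chosen with earlier results of these data known. Genes named were all mitochondrially encoded genes, a panel with 1 or more genes per complex, isoforms, and in each contrast the 3 largest called rises and falls at 5 TPM or more. The other lists were mitochondrial ribosomal proteins, protein import, the tricarboxylic acid cycle, chain genes and assembly factors outside the symbol rule, mitochondrial DNA maintenance, mitochondrial RNA processing, biogenesis regulators and cytosolic ribosomal proteins, with up to 3 called genes named in each direction.

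Replicate numbers are shared between groups. Libraries of the same number deviated together, with every correlation above 0.1, only in these 6 h comparisons: IL-4 (0.107 to 0.382), IL-21 (0.186 to 0.335), and IL-21 on top of IL-4 (0.183 to 0.377). Alternatives were another pseudocount (0.1), no filter, median-of-ratios rescaling, rescaling without mitochondrial genes, a replicate block, a fit of only the groups compared, and leaving out libraries. After the data were seen, sums with copies, the median over genes in place of the sum, and leaving out both libraries that stood apart (replicate 1 of naive and of IL-4 at 24 h) were added.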

Additional observations from a re-analysis of the deposited data

Results flagged for a closer look

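In 8 cases the IL-21 difference of a nuclear member was not the same with and without IL-4, by the interaction term of the limma fit at an adjusted p below 0.05. At 6 h 1 of 87 members was called, where 0.412% of all tested genes were, and at 24 h 7 of 87, where 5.8% were. A limma fit of only the groups compared called 0 at either time, with 4 and 13 members at an unadjusted p below 0.05, and leaving out single libraries brought the count at 24 h to between 2 and 15. The member called at 6 h was Cox6a2 (−1.47), a muscle isoform listed at no more than 3.031 TPM. Those called at 24 h were Cox6a2 (−1.10), Ndufa12 (−0.82), Atp5g1 (−0.79), Ndufs6 (−0.66), Uqcrq (−0.65), Uqcr11 (−0.62) and Atp5o (−0.55). Each is negative, so IL-21 gave a smaller rise, or a fall, where IL-4 was already present. Ndufa12 was at 254.7, 294.4 and 236.1 TPM with anti-CD40 alone, 379.9, 340.1 and 398.8 TPM with IL-21, 476.6, 581.0 and 583.3 TPM with IL-4, and 503.1, 419.1 and 404.0 TPM with both. Atp5g1 was at 82.33 to 100.6 TPM with anti-CD40 alone, 156.8 to 207.0 TPM with IL-21, 123.4 to 217.3 TPM with IL-4 and 166.9 to 194.7 TPM with both.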

How the results depend on the processing

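Of 111 pairs of a named member and a comparison, 41 were called under every alternative tried. Of 1581 alternative values 1317 kept their call and direction, 263 lost the call and 1 reversed, Cox5b with IL-21 on top of IL-4 at 24 h, at −0.16 after median-of-ratios rescaling. Counts below are called nuclear or mitochondrially encoded genes in either direction, and the cause was not tested unless named. With a pseudocount of 0.1 the nuclear interaction count at 6 h was 0. With no filter, which tests more genes, IL-21 added to anti-CD40 at 24 h called 0 mitochondrially encoded genes, IL-21 on top of IL-4 at 24 h 2 nuclear genes, and 24 h against 6 h with IL-4 0 mitochondrially encoded genes. After rescaling the nuclear counts were 12 for anti-CD40 at 24 h against naive, 2 and 60 for IL-4 at 6 h and 24 h, 17 for IL-21 at 24 h, 19 for IL-21 on top of IL-4 at 24 h and 12 for the interaction at 24 h, and the mitochondrially encoded counts were 0 for IL-21 at 24 h and 1 for IL-21 on top of IL-4 at 24 h. Over all tested genes the median difference went with rescaling from −0.31 to −0.02 for IL-4 at 24 h, from 0.23 to 0.02 for IL-21 at 24 h, from 0.25 to 0.01 for anti-CD40 at 24 h against naive, and from 0.38 to 0.00 for IL-21 on top of IL-4 at 24 h.

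With the replicate block, IL-21 at 24 h called 2 mitochondrially encoded genes, IL-21 on top of IL-4 at 24 h 10 nuclear genes, 24 h against 6 h with anti-CD40 alone 2 mitochondrially encoded genes and the interaction at 24 h 12 nuclear genes. These groups share only replicate numbers. Where numbers paired the libraries, the block moved no count by over 1.5 times. A fit of only the groups compared, with fewer samples to estimate the spread, called 17 nuclear genes for anti-CD40 at 24 h against naive, 5 for IL-4 at 24 h, 0 for IL-21 on top of IL-4 at 24 h, 0 for 24 h against 6 h with IL-4, 40 with both cytokines, and 0 for the interaction at 6 h and 0 at 24 h. Its mitochondrially encoded counts were 3 for IL-21 at 24 h, 0 for 24 h against 6 h with IL-4 and 5 with both cytokines.

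Without both libraries that stood apart (replicate 1 of naive and of IL-4 at 24 h), nuclear counts were 36 for IL-21 on top of IL-4 at 24 h, 43 and 32 for 24 h against 6 h with IL-4 and with both cytokines, and 23 for the interaction at 24 h. The mitochondrially encoded counts were 1 and 2 for anti-CD40 at 6 h and 24 h against naive, 2 for IL-4 at 24 h, 4 for IL-21 at 24 h, 7 for IL-21 on top of IL-4 at 24 h, and 2, 4, 2 and 3 for 24 h against 6 h with anti-CD40 alone, IL-4, IL-21 and both.

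Leaving out 1 library at a time, the nuclear counts ran from 35 to 50 (anti-CD40 at 6 h against naive), 18 to 33 (24 h against naive), 22 to 48 (IL-4 at 24 h), 2 to 4 (IL-21 at 6 h), 22 to 33 (IL-21 at 24 h), 0 to 33 (IL-21 on top of IL-4 at 24 h), 0 to 1 and 2 to 15 (interaction at 6 h and 24 h), and 21 to 24, 7 to 41, 14 to 23 and 7 to 15 (24 h against 6 h with anti-CD40 alone, IL-4, IL-21 and both). The mitochondrially encoded counts ran from 0 to 1 and 0 to 2 for anti-CD40 at 6 h and 24 h against naive, 0 to 1 for IL-21 and 0 to 2 for IL-21 on top of IL-4 at 24 h, and 0 to 1 for 24 h against 6 h with IL-4.

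The log2 ratio of nuclear to mitochondrially encoded TPM with nuclear copies added was −2.65, −2.42, −2.44 and −2.52 at 6 h and −2.96, −2.45, −2.05 and −1.96 at 24 h (anti-CD40 alone, IL-4, IL-21, both). As a difference of medians over genes it was −5.59 in naive cells, −5.06, −4.69, −4.57 and −4.64 at 6 h, and −5.30, −4.59, −4.30 and −4.34 at 24 h. Depth is unknown, so it cannot be said which low values are limited by it.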
